A study of Rattus norvegicus albus with 14 samples.

Results

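The genes described here are 44 listed genes that handle oxidants, glutathione and iron, measured as messenger RNA in cultured heart cells of newborn rats over a course of rosiglitazone. They were taken by symbol from the count tables, 1 row per gene ID, out of 32545 genes in all. A total of 42 symbols had a row, with 43 gene IDs, since Slc40a1 has 2. Pgd and Gstm2 had no row under those symbols and were not analysed here. Of the 43 rows, 40 passed the filter on low counts and were tested. The other 3 were Fth1, Gpx4 and the second ID of Slc40a1, and their counts are given with the peroxide and iron genes. Ftl1 enters every count over the 40 members, although it had only 39 counts in all, most of them at 24 h.

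The cells were neonatal rat ventricular myocytes, heart muscle cells of 1-day-old Sprague-Dawley rats, pooled over animals, depleted of fibroblasts by preplating and kept in a serum-free medium with insulin, transferrin and selenium. The control group was DMSO 0.5 h, with 1% DMSO as vehicle and 1 library. The treated groups were rosiglitazone 0.5 h, 24 h and 48 h, with 10 µmol/L rosiglitazone in 1% DMSO and 2 libraries each. Rosiglitazone is a drug that activates PPARγ, a nuclear receptor that regulates lipid genes. DMSO libraries of 24 and 48 h were not analysed here. In any comparison between times, hours in culture and hours of drug cannot be told apart, and the transferrin, selenium and DMSO were shared by all groups. The labels do not say whether replicate libraries stem from separate dishes, and the spread that the p-values rest on may be technical.

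Oxidants are removed by enzyme chains that end in glutathione or thioredoxin, and both are recharged with NADPH. Many of the genes involved carry antioxidant response elements that bind NRF2, the product of Nfe2l2. KEAP1 holds NRF2 for degradation until oxidants or electrophiles modify it, so that NRF2 is governed largely at the protein level. Iron belongs to the same system because free iron turns peroxide into more reactive radicals. Iron regulatory proteins stabilise the transferrin receptor messenger and block ferritin translation when iron is scarce.

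The 7 libraries held 10886559 to 28074620 counts, and the shallowest was replicate 2 of 48 h. Each had been deposited as 2 splits, which differed by no more than the sampling noise (chi-square over degrees of freedom from 0.963 to 1.02) and were counted as 1 sample. Replicates of a group differed more, most at 24 h, where the SD over genes of the log2 ratio of replicates was 1.60, against 0.81 at 0.5 h and 1.23 at 48 h. The culture was mixed by its markers. Fibroblast markers, 9 with a row of 10 listed, summed to 53766 to 55850 CPM (read counts divided by the scaled library size) in the 0.5 h libraries, 37682 and 34217 at 24 h, and 18672 and 35098 at 48 h. Cardiomyocyte markers, 13 with a row of 14, summed to 9331 in the DMSO library, to 16536 and 15883 with rosiglitazone at the same time, then to 14280 and 3293 at 24 h and 403 and 1799 at 48 h. At 48 h against 0.5 h, 11 of the 13 cardiomyocyte markers were lower at an adjusted p under 0.05 in edgeR. Of all genes tested, 4.62% were. So were 4 of 6 smooth muscle, 3 of 7 endothelial, 3 of 15 macrophage, 1 of 9 fibroblast and 0 of 6 red blood cell markers. Of the fibroblast markers, 1 was higher, against 1.97% of all genes. Smooth muscle markers went from 3466 to 4332 at 0.5 h to 1803 and 652 at 24 h and 177 and 655 at 48 h, and endothelial markers from 164 to 196 to 108 and 53.7 and then 44.1 and 47.9. Red blood cell markers, which include globin genes, summed to 143, 255 and 477 at 0.5 h, 551 and 227 at 24 h and 195 and 414 at 48 h, and Rhag was at 0 throughout. The part of these shifts in the results below was not tested.

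Most of the antioxidant genes stood higher late in the course than early, with a positive log2 fold change at 48 h against 0.5 h for 32 of 40 members, where 7216 of 15655 genes had one, and none of those tested fell past the threshold in edgeR. Rosiglitazone at 48 h against rosiglitazone at 0.5 h had 12 of 40 members higher and 0 lower, at an adjusted p under 0.05 in edgeR's quasi-likelihood test. Of all 15655 genes tested, 1.97% were higher and 4.62% lower. With the 4 libraries of 24 and 48 h set against the 3 libraries of 0.5 h, 15 of 40 members were higher and 0 lower, against 3.43% and 6.78% of all genes. The median log2 fold change of the members was 0.90 and 0.76 in these comparisons, against -0.07 for all genes in both. In bulk RNA, more cells of a type and more RNA per cell cannot be told apart.

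These counts depended on which libraries entered, and so did the share of all genes called in either direction. At 48 h against 0.5 h, 0 members passed without replicate 1 or without replicate 2 of rosiglitazone 0.5 h, against 0.228% and 0.616% of all genes. Without replicate 1 of 48 h, 0 passed, against 0.0773%, and without replicate 2 of 48 h, 6 passed, against 2.55%. Without replicate 1 or replicate 2 of 24 h, 21 and 19 passed, against 17.5% of all genes in both fits. For late against early libraries, 3 members passed without replicate 1 and 3 without replicate 2 of rosiglitazone 0.5 h, against 1.87% and 2.6%, and these were Gsta4, Nqo1 and Taldo1 in both cases. Without replicate 1 of 48 h, 6 passed, against 3.69%, namely those 3 with Gstp1, Slc11a2 and Sod2, and 10 did without replicate 2, against 6.27%. Fits that called few members thus called few genes in all, and fits that called many members called many. Every call given below for another member in that comparison, and every call at 48 h against 0.5 h, was therefore lost without at least 1 library. DESeq2 called 21 of 39 members with an adjusted p in each comparison, against 18% and 21.8% of all genes. Below, a member rose, fell or passed by edgeR's test over all libraries unless DESeq2 is named.

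At 24 h against 0.5 h, edgeR called 0 members, against 0.0958% of all genes, but 23 members were higher and 0 lower at an unadjusted p under 0.05, where 6.55% and 9.12% of all genes were. DESeq2 called 19 of 39, all higher, against 8.39% of all genes in either direction. Both 24 h libraries exceeded both 0.5 h libraries for 30 of 40 members and lay under both for 2, against 21.2% and 28.9% of all genes. The 30 include Ftl1, which is too low to be read. The median log2 fold change was 1.04, against -0.03 for all genes. At 48 h against 24 h, edgeR called 0 members and 0% of all genes. At an unadjusted p under 0.05, 4 members were higher and 3 lower, against 2.8% and 5.34%, and DESeq2 called 2, Slc11a2 and Sod2, against 3.48%. Without overlap between libraries, 9 members were higher and 8 lower, Ftl1 among the 8, against 14.5% and 14.6% of all genes. The median was 0.01, against -0.01 for all genes.

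Over the whole course, libraries of 48 h did not overlap those of rosiglitazone 0.5 h for 28 members that were higher and 5 that were lower, where 28.3% and 34.4% of all genes did so. All 4 late libraries exceeded all 3 early ones for 23 members, and all lay under them for 1, Gpx3, against 14.2% and 19.5% of all genes.

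**Figure D1:**
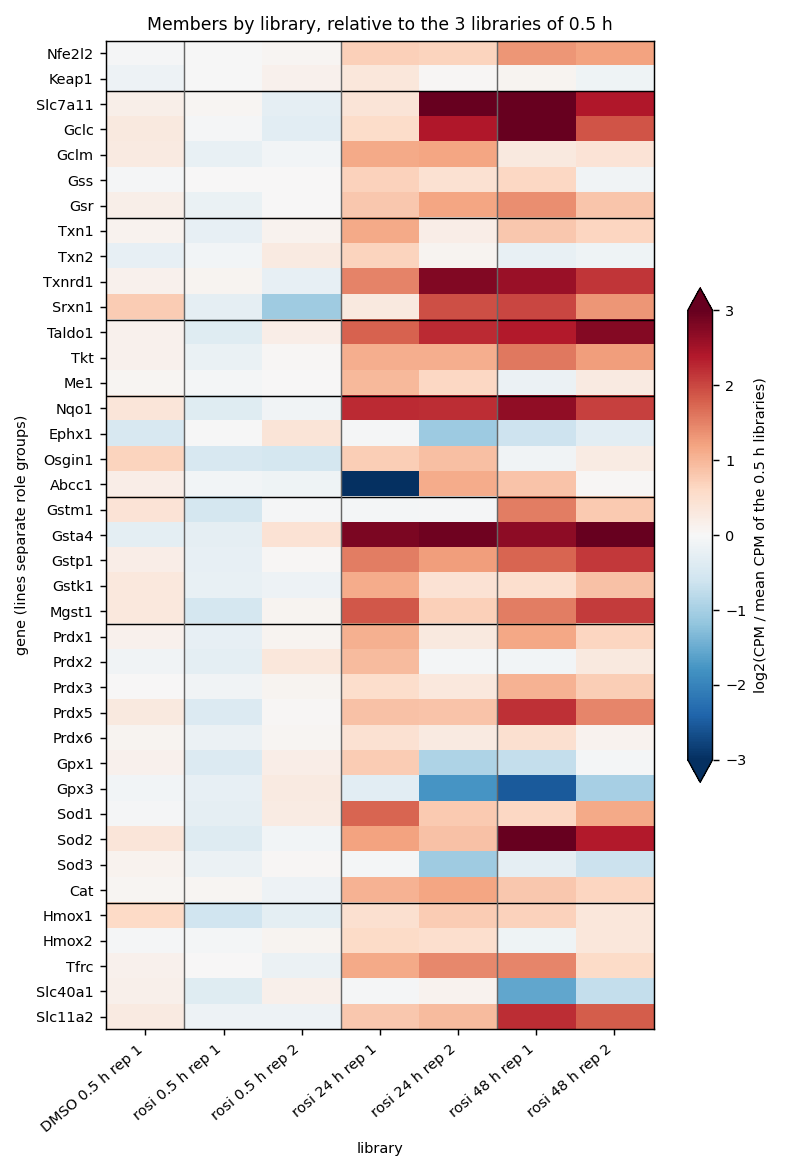
Heat map of 39 tested members (rows, Ftl1 left out for its low counts) in the 7 libraries (columns), as the log2 of CPM over the mean CPM of the 3 libraries of 0.5 h; colours stop at 3 and -3. Red fills most rows from 24 h on, while Gpx3 is blue in the late libraries and Slc7a11 and Gclc differ between replicates of a time.

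Nfe2l2 itself rose and Keap1 did not pass the threshold. Nfe2l2 stood at 242 CPM in DMSO, 246 and 260 with rosiglitazone at 0.5 h, 410 and 398 at 24 h, and 627 and 575 at 48 h. Libraries of the 3 times did not overlap, and the replicates lay close together at each time. The log2 fold change was 1.25 at 48 h against 0.5 h (SE 0.25, adjusted p = 0.0338) and 0.99 for late against early libraries (SE 0.21, adjusted p = 0.0273). Keap1 stood at 43.8 CPM in DMSO, 48.3 and 52.9 at 0.5 h, 60.8 and 49.6 at 24 h, and 51.5 and 44.5 at 48 h. Its rosiglitazone groups overlapped between times, and both rosiglitazone libraries of 0.5 h lay above DMSO. The log2 fold change of Keap1 was -0.07 at 48 h against 0.5 h (SE 0.28).

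Of the 5 genes that make and recharge glutathione, Gclc and Gsr rose for late against early libraries and Gclc alone at 48 h against 0.5 h. Gclc encodes the catalytic subunit of glutamate-cysteine ligase, the first enzyme of glutathione synthesis. Its level was 151 CPM in DMSO, 121 and 98.9 with rosiglitazone at 0.5 h, 182 and 653 at 24 h, and 1001 and 458 at 48 h. All 4 late libraries exceeded the early ones, but replicate 1 of 24 h exceeded DMSO only slightly. Gclc rose by a log2 fold change of 2.73 at 48 h against 0.5 h, just inside the threshold (SE 0.64, adjusted p = 0.0499), and by 2.10 for late against early libraries (SE 0.53, adjusted p = 0.0472).

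Slc7a11 encodes the cystine carrier of system xc-, which brings in the cysteine for glutathione. It was at 96.1 CPM in DMSO, 88 and 69.8 at 0.5 h, 111 and 741 at 24 h, and 2584 and 448 at 48 h. Its 48 h mean was 19.2-fold that of 0.5 h, yet the replicates differed by several-fold at both late times. Slc7a11 missed the threshold at 48 h against 0.5 h, with a log2 fold change of 4.26 (SE 1.08, adjusted p = 0.0608), as it did for late against early libraries, with 3.21 (SE 0.89, adjusted p = 0.064). DESeq2 called it higher in both. Gclc and Slc7a11 ranked the 4 late libraries in the same order, with replicate 1 of 48 h first, then replicate 2 of 24 h, replicate 2 of 48 h and replicate 1 of 24 h. The cardiomyocyte marker sum in these libraries was 403, 3293, 1799 and 14280 in the same order. It was lowest in the first and highest in the last but not in reverse order between them. Fibroblast marker sums of 18672, 34217, 35098 and 37682 ran in full reverse order. So did smooth muscle sums of 177, 652, 655 and 1803 and red blood cell sums of 195, 227, 414 and 551. Endothelial and macrophage sums did not. The part of these shifts in Gclc and Slc7a11 was not tested.

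Gsr encodes glutathione reductase, which recharges oxidised glutathione with NADPH. It rose for late against early libraries, with a log2 fold change of 1.04 (SE 0.24, adjusted p = 0.0387), from 77.2 CPM in DMSO and 59.4 and 69.3 with rosiglitazone at 0.5 h to 121 and 156 at 24 h and 180 and 123 at 48 h. The early and late libraries did not overlap.

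Gclm, the modifier subunit of glutamate-cysteine ligase, stood at 87.1 CPM in DMSO and 61.9 and 68.3 at 0.5 h, then 160 and 165 at 24 h, and 88.1 and 96.5 at 48 h. The 24 h libraries lay above all others and the 48 h libraries just above DMSO. The log2 fold change was 1.32 at 24 h against 0.5 h (SE 0.24, adjusted p = 0.0853) and -0.82 at 48 h against 24 h (SE 0.24, adjusted p = 0.381). Neither passed in edgeR, and DESeq2 called the first, as it did the difference between late and early libraries. Gss, glutathione synthetase, ranged from 38.8 to 67.4 CPM and passed in no comparison.

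In the thioredoxin system, edgeR called Txnrd1 higher and none of the other 3 members, of which DESeq2 called Srxn1. Txnrd1, the cytosolic thioredoxin reductase and a selenoprotein, stood at 268 CPM in DMSO, 257 and 206 at 0.5 h, 682 and 1681 at 24 h, and 1468 and 1085 at 48 h. Every late library exceeded every early one, and replicate 1 of 24 h was the lowest of the late ones. Its log2 fold change was 2.46 at 48 h against 0.5 h (SE 0.47, adjusted p = 0.028) and 2.30 for late against early libraries (SE 0.39, adjusted p = 0.0159).

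Srxn1 encodes sulfiredoxin, which repairs overoxidised peroxiredoxins. Its level was 11.2 CPM in DMSO, 5.46 and 3.16 with rosiglitazone at 0.5 h, 8.13 and 25.1 at 24 h, and 26.6 and 16.6 at 48 h. Replicate 1 of 24 h lay under DMSO, so that late and early libraries overlapped, and the log2 fold change of 2.33 at 48 h against 0.5 h did not pass in edgeR (SE 0.64, adjusted p = 0.0749). DESeq2 called Srxn1 higher at 24 h and at 48 h against 0.5 h and for late against early libraries. Txn1, thioredoxin itself, ranged from 237 to 303 CPM in the 0.5 h libraries and from 323 to 614 in the late ones, with no overlap and no pass (log2 fold change 0.71, SE 0.29, adjusted p = 0.161). The mitochondrial thioredoxin Txn2 ranged from 78.9 to 149 CPM and had 0 comparisons past the threshold.

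Both enzymes of the pentose phosphate pathway that had a row rose, and malic enzyme did not pass. Taldo1, transaldolase, stood at 143 CPM in DMSO, 102 and 150 at 0.5 h, 448 and 619 at 24 h, and 685 and 894 at 48 h. Each time exceeded the one before it in both libraries. The log2 fold change was 2.64 at 48 h against 0.5 h (SE 0.35, adjusted p = 0.0128) and 2.27 for late against early libraries (SE 0.29, adjusted p = 0.00725).

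Tkt, transketolase, stood at 429 CPM in DMSO, 342 and 402 at 0.5 h, 838 and 831 at 24 h, and 1163 and 936 at 48 h, again without overlap between times. Its log2 fold change was 1.50 at 48 h against 0.5 h (SE 0.28, adjusted p = 0.0269) and 1.23 for late against early libraries (SE 0.23, adjusted p = 0.0195). Me1, the cytosolic malic enzyme that also makes NADPH, was at 235 CPM in DMSO, 217 and 227 at 0.5 h, 443 and 347 at 24 h, and 202 and 271 at 48 h. Its 24 h libraries lay above all others, without a pass (log2 fold change 0.83 at 24 h against 0.5 h, SE 0.28, adjusted p = 0.224).

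Among the genes for quinones, epoxides and conjugates, edgeR called Nqo1 higher and none of the other 3. Nqo1, NAD(P)H quinone dehydrogenase and a widely used readout of NRF2, stood at 186 CPM in DMSO, 113 and 134 with rosiglitazone at 0.5 h, 683 and 675 at 24 h, and 907 and 594 at 48 h. Its 24 h mean was 5.5-fold and its 48 h mean 6.08-fold that of rosiglitazone 0.5 h, and late and early libraries lay far apart. The log2 fold change was 2.60 at 48 h against 0.5 h (SE 0.32, adjusted p = 0.0111) and 2.23 for late against early libraries (SE 0.27, adjusted p = 0.00635). At 24 h against 0.5 h it was 2.46, the smallest p of any member there, and did not pass in edgeR (SE 0.32, adjusted p = 0.0613), while DESeq2 called it.

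Osgin1 encodes an oxidative stress induced growth inhibitor. It was at 24 CPM in DMSO, 10.8 and 10.4 at 0.5 h, 25.1 and 28.1 at 24 h, and 13.9 and 17.8 at 48 h. The DMSO library lay just under the 24 h libraries, and both other groups were lower. DESeq2 called Osgin1 higher at 24 h against 0.5 h, and edgeR did not. Abcc1, the exporter MRP1 that removes glutathione conjugates, ranged from 28.3 to 35.5 CPM in the 0.5 h libraries, then stood at 3.93 and 66.7 at 24 h and 56 and 31.7 at 48 h. Replicates of 24 h thus lay on opposite sides of all other libraries. Ephx1, microsomal epoxide hydrolase, was at 35.2 CPM in DMSO, 48.7 and 64.4 at 0.5 h and 23.4 to 48.1 in the late libraries, with a log2 fold change of -0.67 at 48 h against 0.5 h (SE 0.40, adjusted p = 0.371).

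The glutathione transferases, which attach glutathione to electrophiles, held the largest change past the threshold between early and late libraries. Gsta4, known for clearing the lipid peroxidation product hydroxynonenal, stood at 39.8 CPM in DMSO, 40.5 and 65 at 0.5 h, 342 and 367 at 24 h, and 312 and 565 at 48 h. Every late library exceeded every early one by a wide gap. Its log2 fold change was 3.05 at 48 h against 0.5 h (SE 0.40, adjusted p = 0.0128) and 3.11 for late against early libraries (SE 0.35, adjusted p = 0.00584).

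Gstp1, the pi class enzyme, stood at 766 CPM in DMSO, 563 and 684 at 0.5 h, 1949 and 1592 at 24 h, and 2234 and 2927 at 48 h. The times did not overlap, and the log2 fold change was 2.05 at 48 h against 0.5 h (SE 0.32, adjusted p = 0.0161) and 1.63 for late against early libraries (SE 0.26, adjusted p = 0.0126). Mgst1, a microsomal transferase with peroxidase activity, was at 146 CPM in DMSO, 80.9 and 123 at 0.5 h, 425 and 191 at 24 h, and 337 and 501 at 48 h. Its late libraries exceeded the early ones, and the log2 fold change was 2.03 at 48 h against 0.5 h (SE 0.45, adjusted p = 0.0438).

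Gstm1, of the mu class, was at 33.4 CPM in DMSO, 17.5 and 24.8 at 0.5 h, 24.3 and 24.5 at 24 h, and 73.7 and 43.2 at 48 h. Only the 48 h libraries stood above DMSO, and the log2 fold change of 1.47 at 48 h against 0.5 h did not pass in edgeR (SE 0.37, adjusted p = 0.0586), though it did in DESeq2 and in edgeR without a filter on low counts. Gstk1, which acts in mitochondria and peroxisomes, ranged from 7.82 to 19.5 CPM and had 0 comparisons past the threshold. How reads shared between near copies of the mu, alpha and pi genes were counted is not given in the sources used here, so these levels are uncertain.

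**Figure D2:**
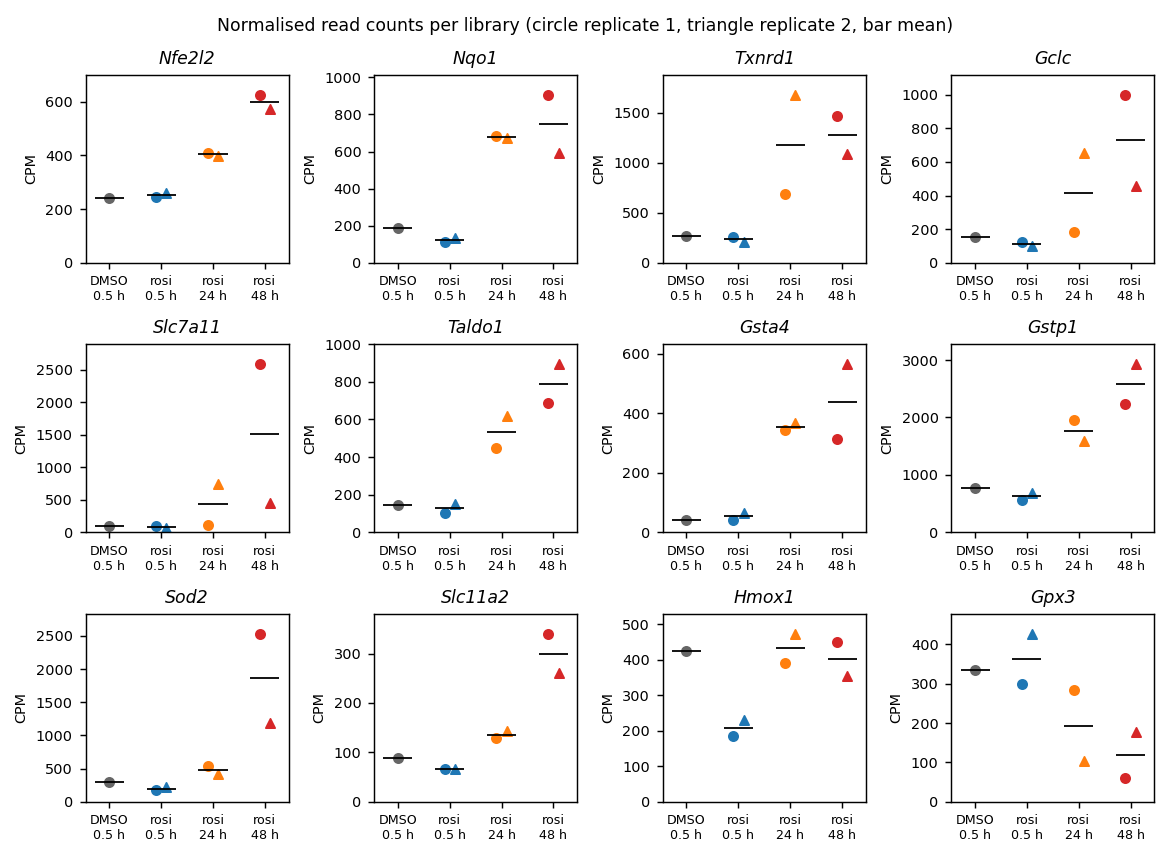
CPM (y axes, from 0) of 12 members in each library by group, with replicate 1 as circles, replicate 2 as triangles and bars at the group means. Nfe2l2, Taldo1 and Gstp1 step up from time to time with close replicates, Slc7a11 and Gclc have replicates far apart, and Hmox1 is lowest in rosiglitazone at 0.5 h.

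Of 11 tested enzymes that act on peroxide and superoxide, 3 rose (Sod2, Prdx5 and Cat) and 0 fell for late against early libraries, where 3.43% and 6.78% of all genes did. Of those that did not pass, 5 had a positive and 3 a negative log2 fold change. Sod2, the mitochondrial manganese superoxide dismutase, stood at 295 CPM in DMSO, 175 and 216 at 0.5 h, 532 and 418 at 24 h, and 2533 and 1190 at 48 h. Its steps from time to time did not overlap, and most of the increase fell into the second day. The log2 fold change was 3.25 at 48 h against 0.5 h (SE 0.43, adjusted p = 0.0128) and 1.97 at 48 h against 24 h, where it did not pass in edgeR (SE 0.41, adjusted p = 0.281).

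The cytosolic Sod1 was at 243 CPM in DMSO, 207 and 294 at 0.5 h, 834 and 430 at 24 h, and 382 and 541 at 48 h, with a log2 fold change of 1.13 for late against early libraries that did not pass in edgeR (SE 0.33, adjusted p = 0.07). It passed there in DESeq2 and in edgeR without a filter on low counts. Sod3, the secreted form, stood at 40.6 CPM in DMSO, 33.4 and 38.8 at 0.5 h, 36 and 18.1 at 24 h, and 31.2 and 24 at 48 h, and its log2 fold change of -0.49 did not pass either (SE 0.31, adjusted p = 0.345).

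Prdx5, a peroxiredoxin of mitochondria, peroxisomes and cytosol, was at 251 CPM in DMSO, 156 and 210 at 0.5 h, 379 and 372 at 24 h, and 935 and 570 at 48 h. The times did not overlap, with a log2 fold change of 2.04 at 48 h against 0.5 h (SE 0.34, adjusted p = 0.0192). Cat, catalase of peroxisomes, was at 173 CPM in DMSO, 173 and 149 at 0.5 h, 342 and 373 at 24 h, and 291 and 259 at 48 h. It rose for late against early libraries, with a log2 fold change of 0.91 (SE 0.21, adjusted p = 0.0348), and the 24 h libraries were the highest. Prdx1, Prdx2, Prdx3 and Prdx6, the other peroxiredoxins listed, had log2 fold changes of 0.80, 0.35, 0.66 and 0.32 for late against early libraries. None of them passed in edgeR, and DESeq2 called Prdx1 and Prdx3.

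The glutathione peroxidases, selenoproteins that reduce peroxides with glutathione, had no member past the threshold in edgeR. Gpx1, the cytosolic form, stood at 202 CPM in DMSO, 138 and 212 at 0.5 h, 312 and 96.3 at 24 h, and 112 and 177 at 48 h. Gpx3, the secreted form, stood at 335 CPM in DMSO, 299 and 427 at 0.5 h, 283 and 103 at 24 h, and 61.2 and 177 at 48 h. All late libraries of Gpx3 lay under all early ones, replicate 1 of 24 h by little. Its log2 fold change was -1.61 at 48 h against 0.5 h (SE 0.62, adjusted p = 0.171) and -1.20 for late against early libraries (SE 0.47, adjusted p = 0.147), neither past the threshold, and DESeq2 called it lower in the first. Gpx1 ranked the late libraries as the macrophage marker sum did, with replicate 1 of 24 h highest and replicate 2 of 24 h lowest. The early libraries did not share that order. The macrophage sum was 1187 in DMSO against 347 and 483 with rosiglitazone, while Gpx1 in DMSO lay between the rosiglitazone libraries. The part of macrophages in Gpx1 was not tested. Gpx4, which protects membrane lipids, had 0 to 7 counts a library and was not tested. Cells in general use this gene, so nothing is read from its level.

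Of 6 tested genes of heme and iron, Slc11a2 and Tfrc rose for late against early libraries and Slc11a2 alone at 48 h against 0.5 h, while the ferritin genes could not be read. Slc11a2 encodes DMT1, which carries ferrous iron out of endosomes. It stood at 88.8 CPM in DMSO, 66.2 and 66.4 at 0.5 h, 129 and 143 at 24 h, and 340 and 260 at 48 h, with no overlap between times. Its log2 fold change was 2.18 at 48 h against 0.5 h (SE 0.27, adjusted p = 0.0111) and 1.40 for late against early libraries (SE 0.22, adjusted p = 0.0114).

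Tfrc, the transferrin receptor, was at 140 CPM in DMSO, 129 and 113 at 0.5 h, 282 and 348 at 24 h, and 349 and 189 at 48 h. Early and late libraries did not overlap, and Tfrc rose by a log2 fold change of 1.16 between them (SE 0.28, adjusted p = 0.0433). It had 1.15 at 48 h against 0.5 h and did not pass in edgeR (SE 0.34, adjusted p = 0.0957), while DESeq2 called it. Slc40a1 encodes ferroportin, the iron exporter, which macrophages carry at a high level. It was at 24.3 CPM in DMSO, 17.1 and 24.6 at 0.5 h, 21.6 and 23.7 at 24 h, and 7.5 and 13.4 at 48 h. Its 48 h libraries were the lowest, and the log2 fold change of -1.13 at 48 h against 24 h did not pass (SE 0.42, adjusted p = 0.522). The second gene ID of Slc40a1 was listed at 0 in every library.

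Hmox1, the inducible heme oxygenase that frees iron from heme, stood at 425 CPM in DMSO, 185 and 229 with rosiglitazone at 0.5 h, 390 and 473 at 24 h, and 451 and 354 at 48 h. DMSO lay within the range of the late libraries and the rosiglitazone 0.5 h libraries lay under all others. At 48 h against 0.5 h the log2 fold change was 0.96 (SE 0.28, adjusted p = 0.0926), and for late against early libraries 0.49 (SE 0.23, adjusted p = 0.209). DESeq2 called the first. Hmox2, the constitutive form, ranged from 39.4 to 64.1 CPM and had 0 comparisons past the threshold. Fth1, the ferritin heavy chain, was listed at 0 counts in all 7 libraries, and Ftl1, the light chain, had 0 to 15 counts a library and 39 in all. Both are used by cells in general, so no level or fold change is read from them.

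**Figure D3:**
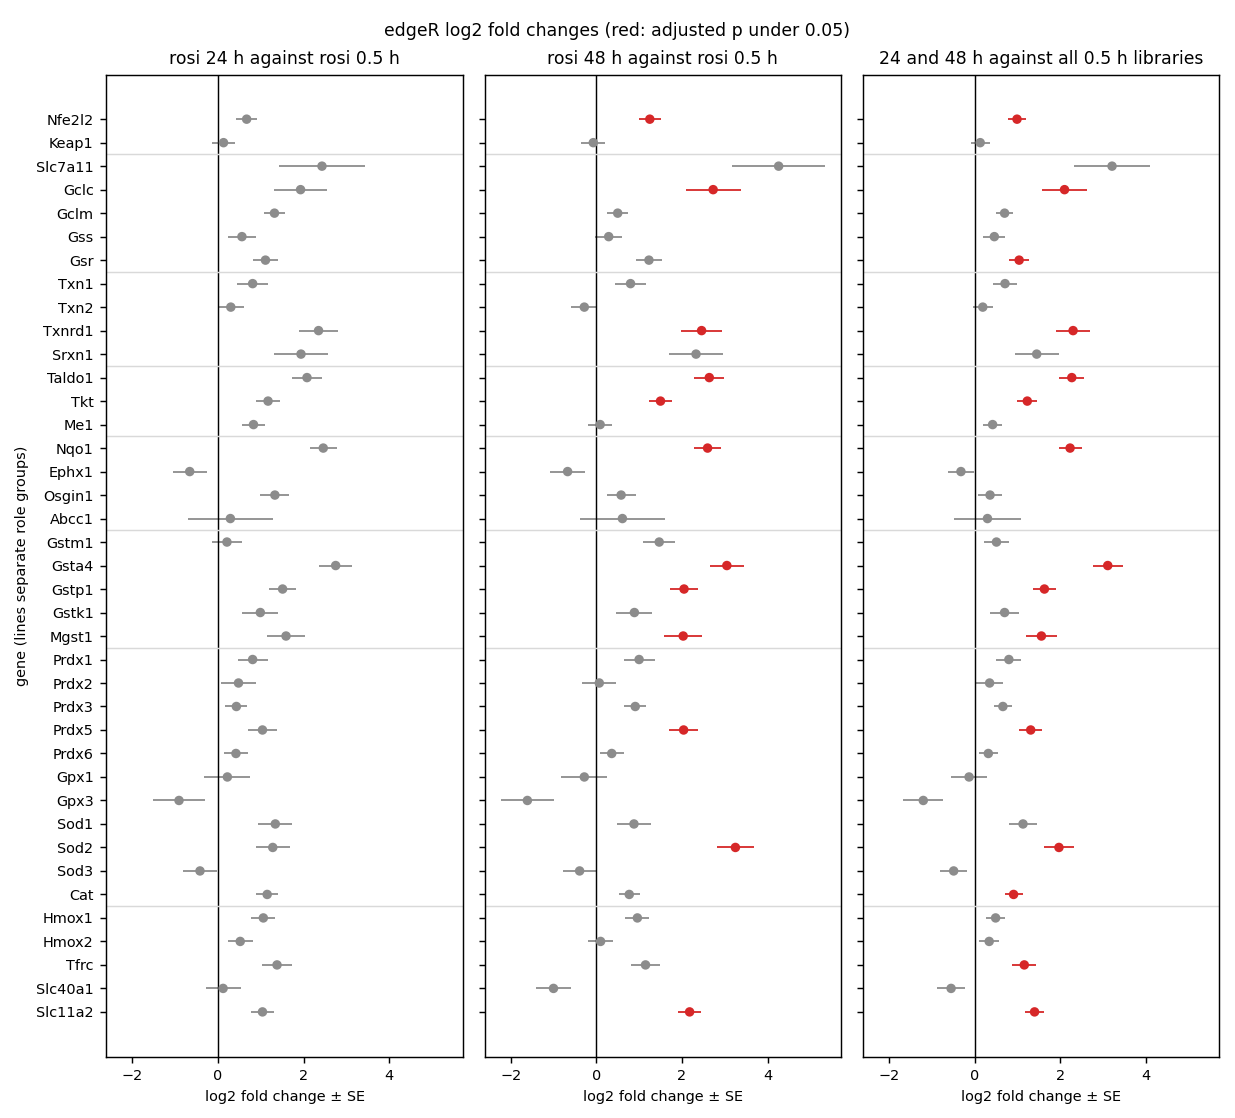
edgeR log2 fold change (points) with its SE (bars) of 39 tested members (Ftl1 left out) at 24 h and 48 h against rosiglitazone 0.5 h and for the 24 and 48 h libraries against all 0.5 h libraries; red marks an adjusted p under 0.05. Of the members, 0, 12 and 15 are red in the 3 panels, and Gpx3, Ephx1 and Sod3 lie under 0 in each.

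At 0.5 h, the only time with a DMSO library, edgeR called 0 of 40 members and 0% of all genes for rosiglitazone against DMSO, and DESeq2 called 0, against 0.0128%. At an unadjusted p under 0.05, 0 members were higher and 2 lower, against 0.109% and 0.498% of all genes, and these were Hmox1 and Osgin1. Hmox1 had a log2 fold change of -1.04 (SE 0.33, adjusted p = 1) and Osgin1 of -1.18 (SE 0.40, adjusted p = 1). With the rosiglitazone 0.5 h and DMSO libraries alone in the fit, Hmox1 passed in edgeR, with an adjusted p of 0.00651, while over all 12 alternatives for it the range was 0.00651 to 1. That fit, with its 1 DMSO library, called 1.18% of all genes. Srxn1 had the lowest log2 fold change, -1.37 (SE 0.72, adjusted p = 1).

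The members lay on the lower side more often than on the higher. Both rosiglitazone libraries were under the DMSO library for 25 members and above it for 6, where 31.8% and 30.2% of all genes were, and the median log2 fold change was -0.21, against 0.01. With 1 DMSO library, a trait of that library and an effect of rosiglitazone cannot be told apart. Macrophage markers summed to 1187 CPM in DMSO against 347 and 483 with rosiglitazone at 0.5 h, and all 15 listed were lower in both rosiglitazone libraries, none of them at 0 in DMSO. The late libraries had 583 and 209 at 24 h and 279 and 467 at 48 h. Hmox1, like Slc40a1, is abundant in macrophages, and the part of that difference in the Hmox1 values was not tested. Cardiomyocyte markers went the other way, with all 13 tested higher in rosiglitazone at 0.5 h than in DMSO.

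The authors' deposited table passed more members. It gave 10 of 39 members lower and 1 higher for rosiglitazone against DMSO at 0.5 h, against 5.96% and 5.07% of its genes, with Hmox1 at a log2 fold change of -0.97 (adjusted p = 2.7e-13) and Ephx1 the higher one at 0.60 (adjusted p = 0.0016). For 24 h against 0.5 h the authors' deposited table had 29 of 40 members higher and 1 lower, against 17.8% and 21.2%. Nqo1 stood there at 2.47 and Gclm at 1.34. For 48 h against 24 h the authors' deposited table had 9 of 41 members higher and 7 lower, against 6.99% and 9.46%. The 7 include Ftl1 and the 41 also include Gpx4, both too low to be read. Sod2 stood there at 1.81, Gclm at -0.83 and Me1 at -0.73. Those tables hold the splits of each library as columns of their own, and how the splits entered the authors' test is not given in the sources used here.

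**Figure D4:**
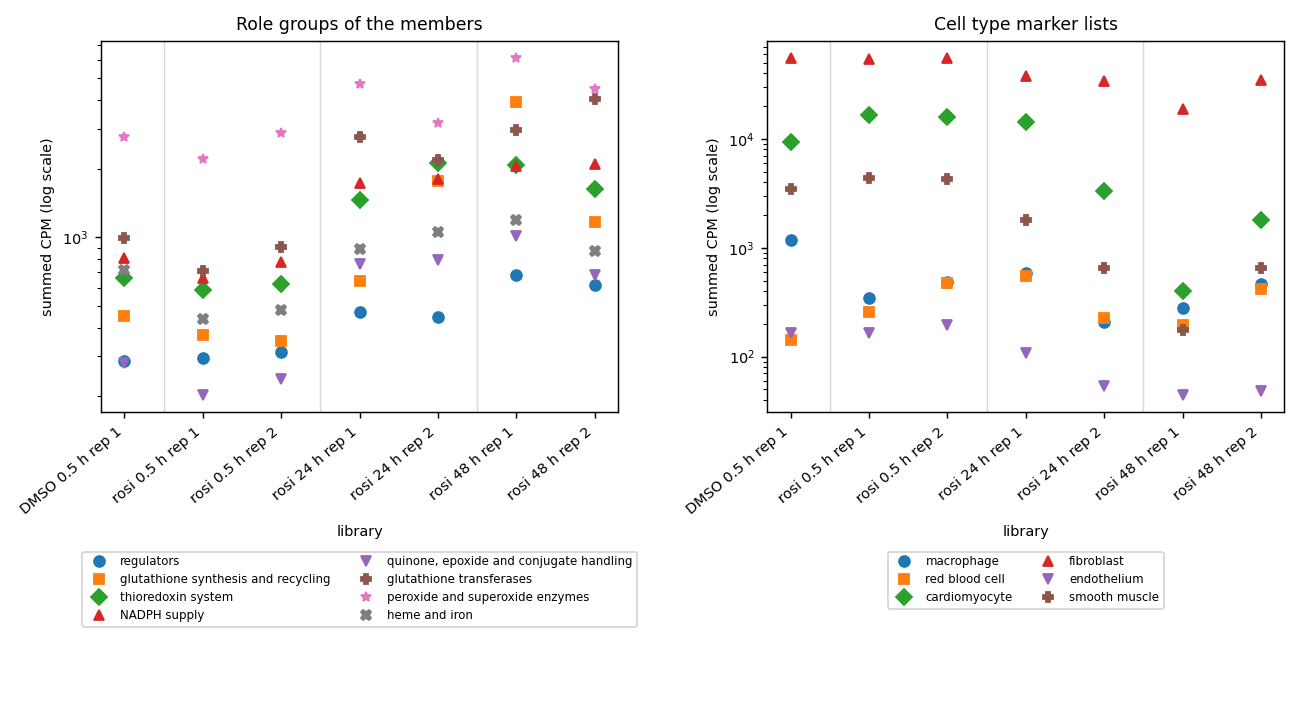
Summed CPM (log axis) of the 8 role groups of members (left) and of 6 cell type marker lists (right) in each library; grey lines separate the groups. Summed glutathione synthesis genes reach 3917 in replicate 1 of 48 h, the library where cardiomyocyte markers are lowest at 403. Fibroblast, smooth muscle and endothelial markers are lowest there too, at 18672, 177 and 44.1.

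By summed level, the role groups differed in how well replicates held together. The NADPH supply genes summed to 661 to 807 CPM in the 0.5 h libraries, 1728 and 1797 at 24 h, and 2049 and 2100 at 48 h. Replicates of a late time differed by 1.04-fold and 1.02-fold, although single genes moved in opposite directions between them. Replicate 2 was the lower one for Me1 and the higher one for Taldo1 at 24 h, and at 48 h it was the higher one for both and the lower one for Tkt. The glutathione synthesis group summed to 349 to 452 at 0.5 h, 642 and 1773 at 24 h, and 3917 and 1164 at 48 h, with replicates 2.76-fold and 3.37-fold apart, chiefly through Slc7a11 and Gclc. The glutathione transferases summed to 710 to 996 at 0.5 h and 2188 to 4053 in the late libraries. Cardiomyocyte marker sums differed 4.34-fold between the replicates of 24 h and 4.47-fold between those of 48 h, and their part in the spread of the members was not tested.

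Further genes of the same pathways, listed beside the members, were called in part. Of 16 other NRF2 pathway genes tested, 4 rose and 0 fell for late against early libraries (Sqstm1, Mafg, Slc3a2 and Abcc4). Of all genes, 3.43% rose and 6.78% fell there. The median log2 fold change was 0.77, against -0.07 for all genes. Sqstm1 encodes p62, which binds KEAP1, and stood at 589 CPM in DMSO, 435 and 551 at 0.5 h, 2004 and 2968 at 24 h, and 2612 and 2903 at 48 h (log2 fold change 2.28, SE 0.29, adjusted p = 0.00704). Mafg, a small MAF partner of NRF2, went from 29.5 to 34.8 CPM at 0.5 h to 67.5 to 113 in the late libraries (log2 fold change 1.37, SE 0.24, adjusted p = 0.0159). Slc3a2 encodes the heavy chain that partners Slc7a11 and other carriers. It was at 404 CPM in DMSO, 365 and 367 at 0.5 h, 799 and 1663 at 24 h, and 1704 and 1265 at 48 h (log2 fold change 1.81, SE 0.34, adjusted p = 0.0198). As with Slc7a11, replicate 1 of 48 h was the highest and replicate 1 of 24 h the lowest of the late libraries, over a narrower range.

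Of 11 other glutathione transferase genes tested, 3 rose and 1 fell in that comparison, against 3.43% and 6.78% of all genes. The 3 include Gsta2, which passed the filter only through its late libraries and is not read as a rise. Mgst2 and Gsto1 rose, with log2 fold changes of 1.35 (SE 0.30, adjusted p = 0.0334) and 0.98 (SE 0.23, adjusted p = 0.039). Mgst3 fell, with -2.45 (SE 0.60, adjusted p = 0.0451), from 13.5 to 16.7 CPM at 0.5 h to 12.8 and 2.22 at 24 h and 1.13 and 0.837 at 48 h. Its late libraries below 3 CPM are the 3 in which cardiomyocyte, fibroblast, smooth muscle and endothelial marker sums were all lowest. This did not hold for the macrophage and red blood cell sums. The part of these cell types in Mgst3 was not tested. The other one past the threshold, Gsta2, was at 0 in the early libraries and at 1.02 to 2.83 CPM in the late ones, so low that no fold is given.

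Other peroxide and redox enzymes numbered 17 tested, of which 2 rose (Glrx2 and Txnrd3) and 0 fell for late against early libraries. Of all genes, 3.43% and 6.78% did, and the median of the 17 was -0.38. None of the 17 passed at 48 h against 0.5 h, where 1.97% of all genes rose and 4.62% fell, and their median was -0.81. At an unadjusted p under 0.05 in edgeR, 2 were higher and 7 lower, against 1511 and 2081 of all 15655 genes. Glrx2, a mitochondrial glutaredoxin, had a log2 fold change of 1.29 (SE 0.25, adjusted p = 0.0218). Of 11 other selenoprotein genes, 2 rose and 0 fell for late against early libraries, where 3.43% and 6.78% of all genes did. Of the 11, 3 had a negative log2 fold change, and the median was 0.20. Those that rose were Selenos and Selenok, both of the endoplasmic reticulum, with 1.24 (SE 0.20, adjusted p = 0.0133) and 1.07 (SE 0.26, adjusted p = 0.0441). Txnrd3 (adjusted p = 0.0536) and Selenok (adjusted p = 0.124) did not pass at 48 h against 0.5 h.

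Of 20 other heme and iron genes, 2 rose and 0 fell for late against early libraries, against 3.43% and 6.78% of all genes. At 48 h against 0.5 h, 3 rose and 0 fell, against 1.97% and 4.62%. Slc39a14 encodes ZIP14, a carrier of iron and other metals, and stood at 114 CPM in DMSO, 99.2 and 97.7 at 0.5 h, 168 and 212 at 24 h, and 462 and 413 at 48 h (log2 fold change 2.15 at 48 h against 0.5 h, SE 0.27, adjusted p = 0.0111). Like Slc11a2, it stepped up without overlap at each time. Blvrb, biliverdin reductase B, went from 21 to 27.7 CPM at 0.5 h to 59.5 to 91 in the late libraries (log2 fold change 1.59 for late against early, SE 0.24, adjusted p = 0.0113). Cp, ceruloplasmin, which oxidises exported iron, was at 66.8 to 84.5 CPM at 0.5 h, 91.9 and 97 at 24 h, and 171 and 182 at 48 h (log2 fold change 1.22 at 48 h against 0.5 h, SE 0.25, adjusted p = 0.0358).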

How the data were processed

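The authors deposited whole-number read counts for each gene in each sample, with their own log2 fold change, its SE and an adjusted p-value for 3 comparisons, per the file headers. Per the submitters' processing notes, the tools were cutadapt 1.11, FastQC 0.11.5, HTSeq and DESeq2, and the builds Rnor_6.0 and hg19. For the aligner, the strand setting and the treatment of shared reads, nothing is given in the sources used here. Gene IDs were those of Ensembl for the rat.

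The 14 samples were summed to 7 libraries. A total of 15655 genes were tested with edgeR 4.0.16 in R 4.3.3 (4 groups in 1 fit, TMM scaling, filterByExpr, robust quasi-likelihood dispersions, 3 residual degrees of freedom, biological coefficient of variation 0.514). Adjusted p-values are Benjamini-Hochberg values over the whole table, and 0.05 was the threshold. The SE is the log2 fold change over the square root of F. CPM values are scaled by TMM and not by gene length, so levels are compared within a gene. A count of 0 allows 3 counts, or 0.107 to 0.276 CPM by library, for counting error only. The fit was checked on simulated counts.

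Members and gene lists were chosen with earlier results of these data known. Values per library are given for members past the threshold, a fixed set of members and the 2 members of each role group with the smallest p. Up to 3 genes past the threshold are named from each list of other genes. Alternatives were DESeq2 1.42.0 as the test or for scaling, other filters, only the groups compared, a replicate block and leaving out each library.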

Additional observations from a re-analysis of the deposited data

How the results depend on the processing

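No log2 fold change of a member past the threshold turned sign under any alternative run, but the counts past the threshold moved. With DESeq2 as the test, 19, 2 and 21 members passed at 24 h against 0.5 h, at 48 h against 24 h and at 48 h against 0.5 h, where edgeR had 0, 0 and 12. Without a filter on low counts, 6 passed at 24 h against 0.5 h, against 1.8% of all genes. With only the groups compared in the fit, 22 passed at 48 h against 0.5 h and 1 at 0.5 h against DMSO, where 19.6% and 1.18% of all genes did. Leaving out each library in turn gave 0 to 14 at 24 h against 0.5 h, 0 to 1 at 48 h against 24 h, 0 to 21 at 48 h against 0.5 h and 3 to 21 for late against early libraries, where 0% to 6.52%, 0% to 3.31%, 0.0773% to 17.5% and 1.87% to 21.9% of all genes passed. At 48 h against 0.5 h, Nqo1, Taldo1, Gsta4, Sod2 and Slc11a2 passed under 10 of 13 alternatives and Gclc under 4. For late against early libraries, Nqo1, Taldo1 and Gsta4 passed under 12 of 12 and Gclc under 5. The cause of these shifts was not tested.

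The members' median log2 fold change ranged with libraries left out from 0.71 to 1.04 at 48 h against 0.5 h, from 0.69 to 0.96 for late against early libraries, and from -0.16 to 0.18 at 48 h against 24 h, where its sign changed. With the replicate number as a block, 5 members passed at 48 h against 0.5 h and 5 for late against early libraries, against 2.6% and 3.64% of all genes, in both Gsta4, Nqo1, Slc11a2, Sod2 and Taldo1. Deviations of same-numbered libraries correlated at -0.08, 0.06 and -0.12 over the 3 pairs of times. With 2 libraries a time, these values cannot settle whether equal numbers pair the libraries, and the labels do not say. At or near 0 counts, changes of Gpx4, Ftl1 and Fth1 could not be read, and why their counts were so low was not tested.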
